A study of Mus musculus with 3 samples.

Results

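The nuclear genes of the mitochondrial respiratory chain and ATP synthase were examined in chromatin-bound RNA of mouse macrophages. Members were the genes named Ndufa, Ndufb, Ndufc, Ndufs or Ndufv with a number, Sdha to Sdhd, and those beginning with Uqcr, Cox4 to Cox8 or Atp5, each with a protein_coding transcript. This gave 85 genes of 55536 in the tables and of 22028 whose annotated gene type is protein-coding. They were 37 of complex I, 4 of complex II, 8 of complex III, 18 of complex IV and 18 of complex V. Another 12 matching symbols had no protein-coding transcript and were left out, 11 of them processed pseudogenes. The symbol Atp5o stood on 2 genes, and both were kept.

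The libraries came from bone marrow-derived macrophages of C57BL/6J mice, cultured primary cells that differentiate from marrow. All were exposed to Lipid A, the endotoxin part that Toll-like receptor 4 senses, at 100 ng/ml for 12 h, washed out for 12 h and given Lipid A again at 100 ng/ml for 20 min. Total RNA of the chromatin fraction was sequenced after ribosomal RNA depletion in 3 biological replicates. There is 1 group, and cells without Lipid A were not analysed here, so no value below is an effect of treatment. The labels give all replicates the same donor entry, so the spread between them may in part be technical.

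The respiratory chain passes electrons from NADH (complex I) and succinate (complex II) through coenzyme Q to complex III, cytochrome c and complex IV, where oxygen is reduced. Complexes I, III and IV pump protons across the inner mitochondrial membrane, and complex V, the ATP synthase, makes ATP from the return flow. Most subunits are encoded in the nucleus and a few in mitochondrial DNA. In macrophages, succinate oxidation by complex II and electron flow through complex I are known to matter after Toll-like receptor signalling. RNA of the chromatin fraction is rich in transcripts still being made or spliced, so its level is neither an mRNA level of the cytoplasm nor a protein level.

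Expected counts on genes were 13610746, 24105317 and 16517065 in replicates 1, 2 and 3, of which the members took 0.0698, 0.0722 and 0.0662%. All 10 macrophage markers, among them Adgre1 and Csf1r, were at 1 TPM (a level per transcript length, scaled to the library) or more in every library. In the gene table, Zbtb46 alone of the markers of other cell types was at 1 TPM in every library, with 1.57, 1.20 and 1.46 TPM. The striated muscle markers summed there to 0.13, 0.07 and 0.11 TPM and the adipocyte markers to 0.11, 0.17 and 0.05 TPM. In the kallisto-layout table, a separate quantification of the same libraries, several other markers passed 1 TPM in every library. The T cell marker Cd3d had 13.4, 13.0 and 15.7 TPM, and Pecam1 of endothelium 11.6, 7.62 and 9.28 TPM. The muscle marker Myh7 had 6.93, 3.97 and 4.74 TPM. The macrophage markers had a median of 116 TPM there, and no list of another cell type had a median above 1.59 TPM. Replicates 1, 2 and 3 were made from 1 µg, 250 ng and 500 ng of RNA, so the amount used and the replicate cannot be told apart.

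Most members were detected, at moderate levels. Values, ranks and medians below are those of the gene table unless the kallisto-layout table, a separate quantification of the same libraries, is named. In every library 71 of the 85 members (83.5%) reached 1 TPM, against 45.2% of all protein-coding genes. The median of log2(mean TPM + 1) was 2.91 over the members and 0.75 over all protein-coding genes, a difference of 2.17. By library the difference was 2.26, 2.04 and 2.24. Restricted to genes averaging 1 TPM or more, the sign was the other way: the median was 3.10 over 73 members and 3.57 over the protein-coding genes, a difference of -0.47. A mean of 10 TPM or more was found for 28 members (32.9%), against 25.0% of protein-coding genes, and 4 members lay in the top 10% of protein-coding genes. Those 4 were Atp5b, Sdha, Cox7c and Ndufs1.

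**Figure D1:**
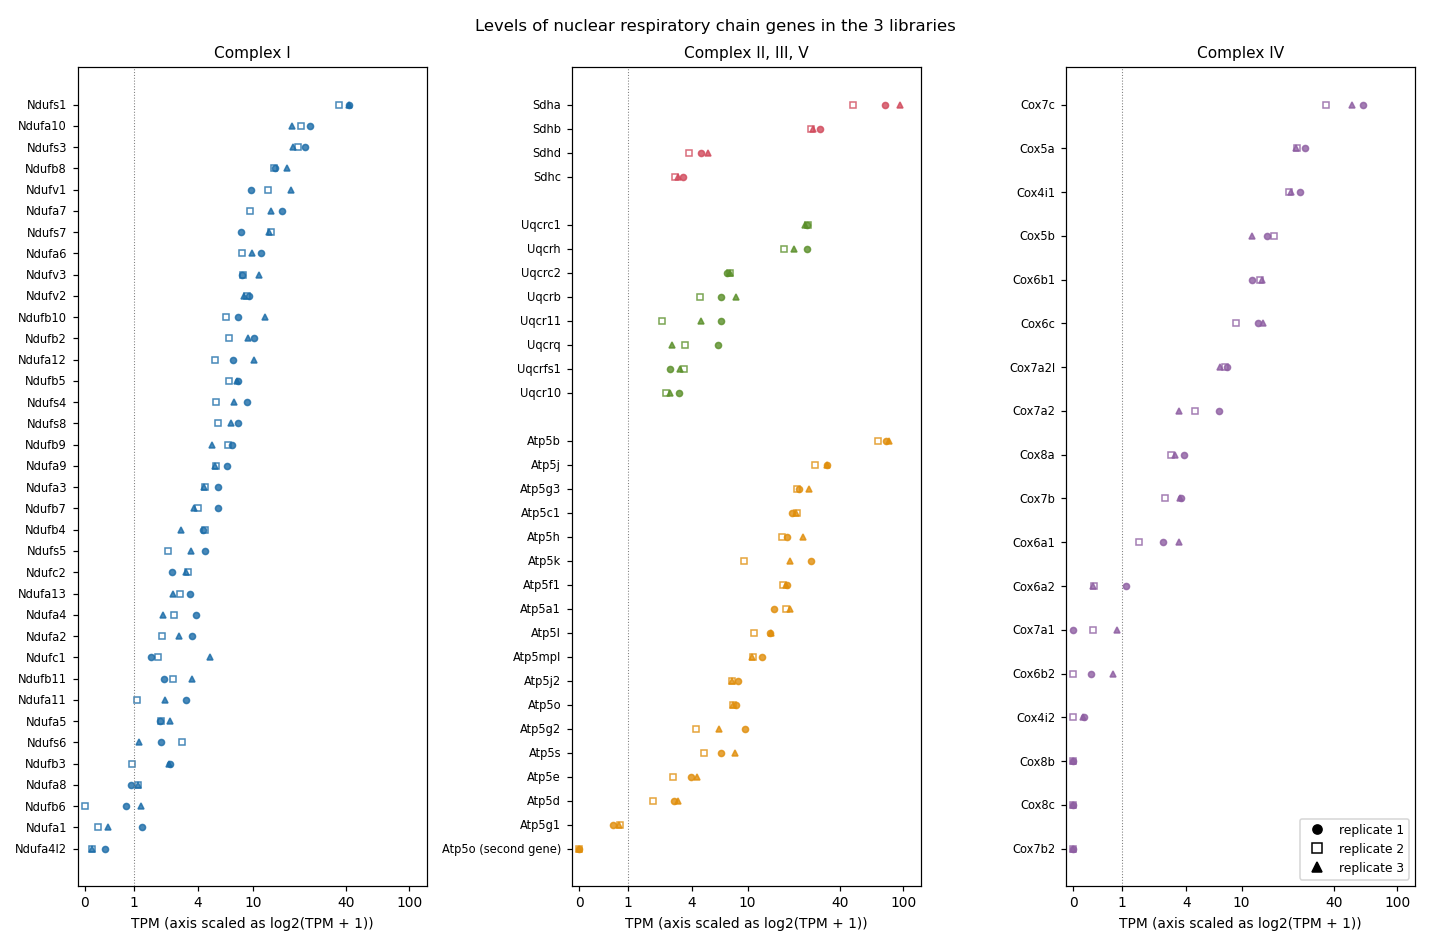
TPM of 84 of the 85 members (rows, by complex, highest mean on top) in the gene table, with 1 symbol per library and the axis scaled as log2(TPM + 1); the dotted line marks 1 TPM. Levels within a complex span from under 1 TPM to 40 TPM or more in complexes I, IV and V, and the 3 libraries mostly lie close together.

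The 37 complex I genes had a median of 5.81 TPM and gave 31.5% of the members' summed TPM. The 7 core subunits, which carry the flavin, the iron-sulfur clusters and the coenzyme Q site, had a median of 13.3 TPM, against 3.95 TPM for the 29 accessory subunits. Ndufs1, the large subunit of the NADH-oxidising arm with iron-sulfur clusters, had 42.0, 36.3 and 42.0 TPM in replicates 1, 2 and 3. It lay above every other gene of the complex in each library. Among the accessory subunits Ndufa10 was highest, with 23.7, 20.5 and 18.0 TPM, and it overlapped the core subunit Ndufs3, with 21.8, 19.8 and 18.4 TPM. The lowest core subunit by mean was Ndufs8, an iron-sulfur protein, with 7.83, 5.65 and 7.05 TPM. It was not the lowest in the kallisto-layout table, with a mean of 30.9 TPM, against 22.5 TPM for Ndufv1 and 22.6 TPM for Ndufv2. Core genes also had longer exonic sequence, with a median of 2178 bases against 1251 bases for accessory genes.

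Accessory subunits surround the core and are needed for assembly and stability. At the low end, Ndufb6 had 0.79, 0 and 1.21 TPM, and Ndufa1, an X-linked subunit of the membrane arm, had 1.26, 0.21 and 0.39 TPM. They rested on means of 3.18 and 1.67 counts, so the order of such genes is not resolved at this depth. Ndufa4, counted here by its symbol with complex I but known in mammals as a subunit of complex IV, had 3.89, 2.57 and 2.03 TPM. Its hypoxia-linked relative Ndufa4l2 had 0.33, 0.11 and 0.10 TPM, the lowest mean TPM of the group, on a mean of 2.00 counts.

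Complex II split into high catalytic subunits and low membrane anchors. It oxidises succinate to fumarate, and it is the complex with no mitochondrially encoded subunit. Sdha, the flavoprotein that binds succinate, had 77.3, 48.5 and 95.3 TPM in replicates 1, 2 and 3. Sdhb, the iron-sulfur subunit, had 30.0, 26.0 and 27.0 TPM. The membrane anchors were far lower, with 3.39, 2.89 and 3.07 TPM for Sdhc and 4.70, 3.77 and 5.28 TPM for Sdhd. Every library of Sdha and Sdhb was above every library of Sdhc and Sdhd. In log2 CPM (counts scaled to the library total, not per length) Sdha had the same library order as in TPM, with 5.96, 5.83 and 6.07. Its estimated effective length ran the other way, with 959, 1068 and 802 bases. Replicate 2 was also the lowest on log2(TPM + 1) for 70.7% of the 9540 protein-coding genes compared in spread below. The part of each in the wide TPM range of Sdha was not tested. In the kallisto-layout table Sdhc was higher, with 19.5, 12.1 and 12.3 TPM, and Sdhd had 4.42, 4.60 and 5.47 TPM. Sdha there had 122, 88.6 and 127 TPM and Sdhb 38.3, 39.0 and 38.7 TPM, so the order of the catalytic subunits over the anchors was the same in both.

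In complex III the 8 members had a median of 5.50 TPM. Uqcrc1, a core protein of the matrix side, had 24.5, 25.2 and 24.0 TPM, and its partner Uqcrc2 had 7.20, 7.53 and 7.54 TPM. The hinge protein gene Uqcrh had 24.6, 17.5 and 20.4 TPM and overlapped Uqcrc1. Uqcrfs1, the Rieske iron-sulfur protein that hands electrons to cytochrome c1, had only 2.67, 3.43 and 3.21 TPM. The lowest was the small subunit Uqcr10, with 3.15, 2.47 and 2.67 TPM, and it overlapped Uqcrfs1. In the kallisto-layout table Uqcrc2 averaged 27.0 ± 4.5 TPM and Uqcrc1 32.5 ± 3.2 TPM (SD, n = 3), so the gap between these partners depended on the quantification.

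Complex IV had the lowest median of the complexes in the gene table, 3.34 TPM, and held the most tissue-restricted forms. Its median was not the lowest in the kallisto-layout table, with 11.2 TPM, against 10.6 TPM for complex I and 9.34 TPM for complex III. Among genes averaging 1 TPM or more it was also above them in the gene table, with a median log2(TPM + 1) of 3.70, against 2.92 for complex I and 2.68 for complex III. Its 10 general forms had a median of 12.5 TPM and its 7 restricted forms one of 0.107 TPM. Cox7c, a small membrane subunit with a single form, was highest, with 60.6, 35.6 and 52.2 TPM. Cox5a, which binds a thyroid hormone metabolite and contacts the matrix side, had 26.1, 23.1 and 22.7 TPM. The other single-form subunits Cox5b and Cox6c averaged 14.3 ± 2.4 and 12.0 ± 2.5 TPM (SD, n = 3). Cox7a2l, grouped here by its textbook role in supercomplexes of complexes III and IV, had 7.99, 7.66 and 7.10 TPM. Whether its product has that role in this mouse strain was not tested.

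For the subunits that exist in paired forms, the general form was the higher in each of the 6 complex IV pairs. Cox4i2, the form of lung and of oxygen sensing, had 0.17, 0 and 0.15 TPM, against 24.2, 20.6 and 21.3 TPM for Cox4i1. Cox6a2, the heart and muscle form, had 1.11, 0.35 and 0.32 TPM, against 2.58, 1.54 and 3.49 TPM for Cox6a1. Cox6b2, the testis form, had 0.28, 0 and 0.77 TPM, against 11.7, 13.2 and 13.8 TPM for Cox6b1. In each of these pairs the libraries of the forms did not overlap.

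Cox7a1, the muscle form, had 0, 0.32 and 0.87 TPM, against 6.92, 4.68 and 3.51 TPM for Cox7a2. Cox7b2 was listed at 0 counts in every library, against 3.67, 2.68 and 3.59 TPM for Cox7b. Cox8b, a muscle form, was also listed at 0 counts, against 3.86, 3.01 and 3.23 TPM for the general Cox8a. Cox8c, a testis form, was listed at 0 as well. A gene at 0 could have up to 3 counts, or 0.220, 0.125 and 0.182 CPM in replicates 1, 2 and 3. In the kallisto-layout table Cox7a1 had 7.04, 8.27 and 8.61 TPM and Cox8b 4.93, 3.96 and 5.60 TPM, so their near absence holds for the gene table alone. The general forms were the higher there too, with a mean of 29.5 TPM for Cox7a2 and 21.9 TPM for Cox8a.

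**Figure D2:**
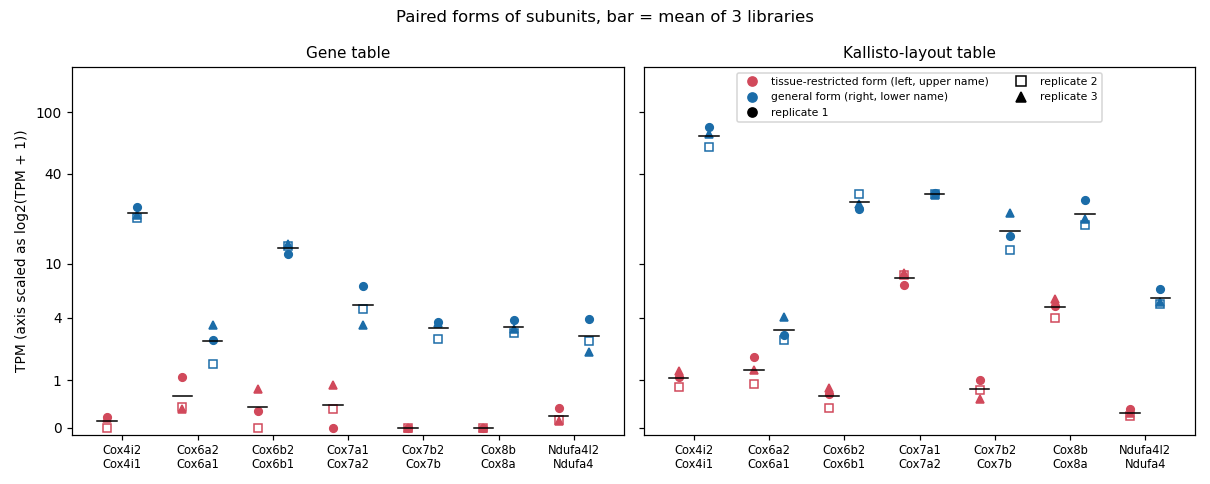
TPM of 7 paired subunits in the gene table (left panel) and the kallisto-layout table (right panel), with the restricted form left of the general form, 1 symbol per library and a bar at the mean; the axis is scaled as log2(TPM + 1). The restricted forms lie at or below 1.11 TPM in every library of the gene table, while Cox7a1 and Cox8b reach 8.61 and 5.60 TPM in the kallisto-layout table.

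Complex V had a median of 12.3 TPM over 18 genes and gave 31.2% of the members' summed TPM. Atp5b, the catalytic beta subunit of the F1 head, had 77.6, 69.6 and 81.7 TPM, the highest mean of all members in the gene table, with libraries that overlapped those of Sdha. It averaged 70.2 TPM in the kallisto-layout table, below Sdha with 112 TPM, Ndufs1 with 81.0 TPM, Cox7c with 73.4 TPM and Cox4i1 with 70.4 TPM. Its partner Atp5a1, the alpha subunit present in equal number in the enzyme, had 15.1, 18.1 and 19.1 TPM, below Atp5b in every library. The other head subunits were Atp5c1, the rotating gamma subunit, with a mean of 20.6 ± 0.8 TPM, Atp5e with 3.71 ± 0.81 TPM and Atp5d with 2.61 ± 0.66 TPM (SD, n = 3).

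The peripheral stalk, which holds the head against rotation, had a median of 17.8 TPM. Its highest gene was Atp5j, coupling factor 6, with 33.3, 27.8 and 33.1 TPM. Atp5o, which joins the stalk to the head, had 8.30, 7.97 and 7.90 TPM. The other gene of that symbol was listed at 0 in every library. It shared 94.0% of its 31-base words with another gene, mostly Donson. The small membrane subunits, which help form dimers, ranged from 8.11 TPM for Atp5j2 to 18.2 TPM for Atp5k.

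The c ring, the rotor that protons turn, is encoded by Atp5g1, Atp5g2 and Atp5g3, whose mature proteins are identical while their import signals differ. The coding sequences of the last 75 codons before the stop are shown because they show where reads of these genes can be told apart. They were read from GENCODE M21 transcripts on mm10, 5′ to 3′ on the coding strand, with capitals at positions where the 3 genes are not all alike. All 3 genes lie on the minus strand, at chr11:96068852-96075670 for Atp5g1, on chromosome 15 for Atp5g2 and on chromosome 2 for Atp5g3.
Atp5g1: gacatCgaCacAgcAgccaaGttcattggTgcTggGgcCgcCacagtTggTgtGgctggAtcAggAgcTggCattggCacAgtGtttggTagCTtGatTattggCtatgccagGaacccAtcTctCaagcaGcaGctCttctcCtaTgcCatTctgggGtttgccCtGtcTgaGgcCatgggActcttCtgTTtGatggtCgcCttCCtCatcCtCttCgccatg
Atp5g2: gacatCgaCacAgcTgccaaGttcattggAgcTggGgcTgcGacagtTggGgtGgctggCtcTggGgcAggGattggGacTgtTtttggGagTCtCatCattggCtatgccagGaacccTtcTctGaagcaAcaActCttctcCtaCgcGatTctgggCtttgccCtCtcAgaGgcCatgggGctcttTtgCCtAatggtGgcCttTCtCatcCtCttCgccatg
Atp5g3: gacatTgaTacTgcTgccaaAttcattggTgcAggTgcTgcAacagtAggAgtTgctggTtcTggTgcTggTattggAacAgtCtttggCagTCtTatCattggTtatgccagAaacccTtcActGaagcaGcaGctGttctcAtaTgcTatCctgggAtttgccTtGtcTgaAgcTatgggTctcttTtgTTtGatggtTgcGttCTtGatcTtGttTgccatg
All 75 of 75 residues were identical in every pair, while 57 of 225 bases differed among the genes. Atp5g1 and Atp5g2 shared 84.9% of these bases, with a longest identical run of 20. Atp5g1 and Atp5g3 shared 80.0%, with a longest run of 11, and Atp5g2 and Atp5g3 78.7%, with a longest run of 8. Over whole transcripts, words of 31 bases shared with any other gene were 13.9% for Atp5g1, 40.2% for Atp5g2 and 0% for Atp5g3.

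The c ring genes differed strongly in level. Atp5g1 had 0.63, 0.80 and 0.76 TPM and Atp5g2 had 9.63, 4.27 and 6.38 TPM. Atp5g3 had 22.0, 21.3 and 25.5 TPM. The order Atp5g3, Atp5g2, Atp5g1 was the same in all 3 libraries, with no overlap between neighbours. In counts the gap between the lower pair was absent: Atp5g1 had 33, 79 and 38 counts, against a mean of 45.5 for Atp5g2, and the effective length of Atp5g1 was 4438, 3799 and 3525 bases. In the kallisto-layout table the means were 2.90, 7.80 and 23.6 TPM for Atp5g1, Atp5g2 and Atp5g3.

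Genes that serve the chain without being subunits of this list were also mostly detected. The 49 assembly factors had a median of 4.30 TPM, with 43 at 1 TPM or more in every library. Their highest by mean were Foxred1, a complex I assembly factor, with 37.0, 27.7 and 27.3 TPM, and Surf1, which helps build complex IV, with 21.7, 25.8 and 27.1 TPM. In the kallisto-layout table Surf1 and Acad9 were highest, with means of 41.5 and 35.1 TPM, against 27.9 TPM for Foxred1. Sco2, a copper chaperone of complex IV, was lowest with 0, 0.20 and 0.45 TPM. The 17 genes of coenzyme Q and cytochrome c include Cyc1, cytochrome c1 of complex III, which is not a member by symbol. It had 6.38, 8.12 and 8.17 TPM. The 17 genes had a median of 7.56 TPM, led by Coq2 and Coq10a with means of 20.8 and 19.5 TPM. In the kallisto-layout table these averaged 22.0 and 28.2 TPM, below Pdss1 with 35.7 TPM and Coq8b with 33.5 TPM. Cycs, the somatic cytochrome c, had 13.8, 10.3 and 9.04 TPM, and Cyct, the testis form, was listed at 0. Of 18 genes for the transcription of respiratory genes and the copying of mitochondrial DNA, 17 were at 1 TPM in every library. The highest by mean were Esrra, an orphan nuclear receptor, with 43.6, 43.5 and 35.7 TPM and Polg, the mitochondrial DNA polymerase, with 35.6, 45.4 and 40.6 TPM. Gabpb2 was above both in replicate 1, with 43.9 TPM, and in the kallisto-layout table it averaged 41.1 TPM, against 38.1 TPM for Polg. The coactivator Ppargc1a, which drives mitochondrial biogenesis in muscle and brown fat, had 0.01, 0 and 0 TPM, with a mean of 1.75 TPM in the kallisto-layout table, while its relatives Ppargc1b and Pprc1 averaged 10.2 and 26.2 TPM.

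Spread between libraries was compared on log2 CPM. Over the 48 members with a mean of 50 counts or more, the SD of log2 CPM had a median of 0.16, against 0.19 over 9540 protein-coding genes past the same filter and 0.20 over those in the members' range of counts. Which was the larger depended on the setting: the medians were 0.199 for members and 0.178 for genes in the kallisto-layout table, and 0.170 and 0.139 without replicate 1. Atp5j, Cox6b1 and Atp5b had the smallest SDs, 0.016, 0.041 and 0.061. Atp5j, for example, had log2 CPM values of 3.59, 3.55 and 3.57. The other 37 members had fewer counts and were not compared in spread.

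A few members stood apart. Atp5k, the e subunit of the ATP synthase membrane part, had log2 CPM values of 2.45, 1.28 and 1.99 (SD 0.59) and was low in replicate 2. Ndufv1, which binds NADH and flavin, had 2.52, 3.33 and 3.63 (SD 0.57), and Ndufs7, an iron-sulfur subunit next to the coenzyme Q site, had 1.60, 2.65 and 2.10 (SD 0.52). Both were low in replicate 1, as was Uqcrfs1 with 1.42, 2.11 and 1.70 (SD 0.35). Ndufs4, a late-assembling accessory subunit, was high there, with 2.92, 2.26 and 2.51 (SD 0.34).

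The order of the libraries was not even across members. In log2 CPM, 30 of 48 members (62.5%) were highest in replicate 2, against 39.6% of protein-coding genes. Another 10 (20.8%) and 8 (16.7%) were highest in replicates 1 and 3, against 32.1 and 28.3%. The lowest value fell in replicate 3 for 23 members (47.9%), against 24.9% of genes. It fell in replicate 1 for 16 (33.3%), against 41.2%, and in replicate 2 for 9 (18.8%), against 33.9%. The shift was small: the members' median difference of replicate 1 minus replicate 2 was -0.15 and of replicate 3 minus replicate 2 was -0.17 in log2 CPM. Over all protein-coding genes past the same filter these medians were -0.04 and -0.01. Per length the counts turned for members and for all genes alike. On log2(TPM + 1), 6 of the 48 (12.5%) were highest in replicate 2, against 9.43% of genes. There 28 (58.3%) were lowest, against 70.7%. On both scales the members' share with the lowest value in replicate 2 was below that of genes. The share with the highest value there was above that of genes in log2 CPM but near it on log2(TPM + 1). Replicate 2 was also the deepest library and had the least starting RNA, and their part in these shifts was not tested.

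The mitochondrially encoded subunits of the same complexes differed more between libraries than the nuclear ones. The nuclear members summed to 974, 798 and 968 TPM in replicates 1, 2 and 3, against 1083, 272 and 1030 TPM for the 13 mitochondrial genes. As shares of counts, the nuclear members took 0.0698, 0.0722 and 0.0662% and the mitochondrial genes 0.0654, 0.0208 and 0.0518%. Of the 10 mitochondrial genes with a mean of 50 counts or more, 8 were lowest in replicate 2, while 9 of 48 nuclear members were. Another, mt-Atp6, was listed at 0 in both replicates 2 and 3, with 29.4 TPM in replicate 1. The gene mt-Co3 was lowest in replicate 3, with 11.1, 8.03 and 0.12 TPM. In the kallisto-layout table both were lowest in replicate 2, with 80.9, 16.4 and 57.5 TPM for mt-Atp6. There mt-Co3 had 78.7, 27.5 and 53.9 TPM. The median SD of log2 CPM was 0.16 for the nuclear members and 1.08 for the mitochondrial genes. The highest means were those of mt-Atp8, a small ATP synthase subunit, with 347, 72.3 and 383 TPM, and mt-Co1, the catalytic subunit of complex IV, with 334, 94.6 and 248 TPM. Their libraries overlapped, and in the kallisto-layout table mt-Co1 was the higher, with a mean of 161 TPM, against 87.5 TPM for mt-Atp8. The complex III gene mt-Cytb had 52.7, 10.9 and 48.0 TPM. In the gene table mt-Co2 and mt-Nd3 were listed at 0, so not every 0 there is a silent gene.

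**Figure D3:**
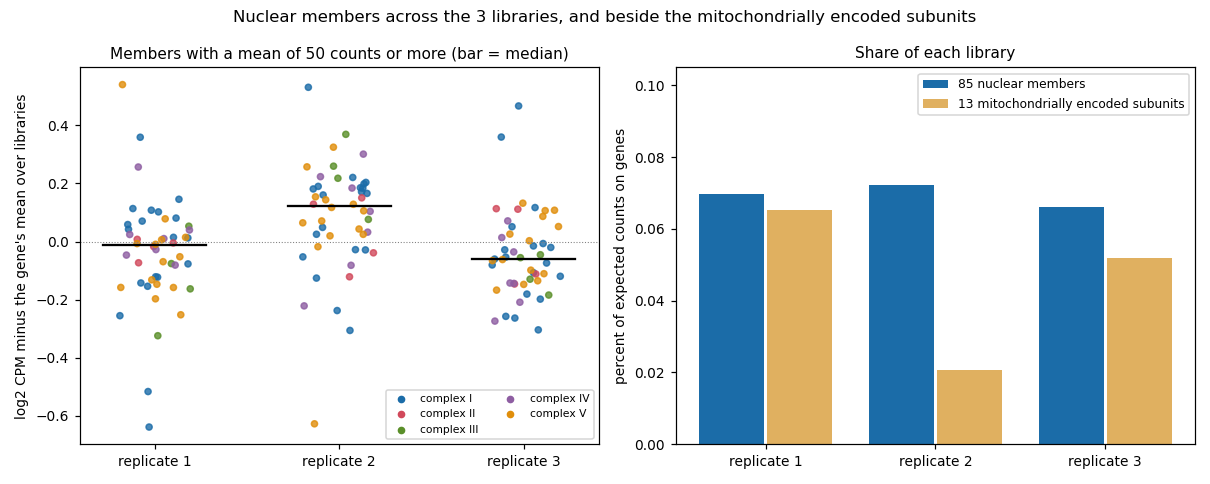
Left panel: log2 CPM of each of the 48 members with a mean of 50 counts or more, minus that gene's mean over the 3 libraries, coloured by complex, with a bar at the median. Right panel: percent of each library's counts on the 85 nuclear members and on the 13 mitochondrially encoded subunits; the nuclear share stays between 0.0662 and 0.0722% while the mitochondrial share is 0.0208% in replicate 2 and 0.0654% in replicate 1.

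Of the members that could be compared, most had over 50% of their TPM outside protein_coding transcripts. The 25 members with only protein_coding transcripts were not compared. The kallisto-layout table gives a class for each transcript, and 58 members had a mean of 1 TPM and at least 1 transcript of another class than protein_coding. Their median share outside protein_coding transcripts was 62.4, 63.9 and 62.0% in replicates 1, 2 and 3, and 62.9% over all libraries. It was 60.8% over 10134 protein-coding genes chosen alike. Of the 58 members, 36 had over 50% there, against 63.5% of genes, so in this table the share was near that of protein-coding genes. In the RSEM-layout transcript table the median was 64.0% for members and 52.1% for genes chosen alike. Transcripts with a retained intron took a median of 52.1% in the 45 members that have any. It was 45.8% in all 7469 protein-coding genes chosen alike, members included.

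Single members differed widely in this share. Ndufb10, a membrane arm subunit of complex I, had 98.1% of its TPM outside protein_coding transcripts, Ndufa7 97.3%, Cox7b 95.9%, Ndufs3 95.3% and Cox4i1 95.0%. In Cox4i1 the retained-intron transcripts alone held 89.0%. At the other end were Uqcrq with 1.06%, Ndufa11 with 3.92% and Atp5d with 4.25%. High members lay at both ends, with 85.4% for Atp5b and 11.2% for Cox7c. By complex the medians were 70.3% for complex I (25 genes), 70.0% for complex II (2 genes) and 44.0% for complex III (7 genes). They were 61.7% for complex IV (11 genes) and 68.0% for complex V (13 genes). By library they were 59.5, 72.5 and 64.0% for complex I and 39.8, 61.5 and 43.5% for complex III, so these ranges overlapped. Complex III was the lowest in each library, but in replicate 2 it was near complex IV with 65.2%.

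**Figure D4:**
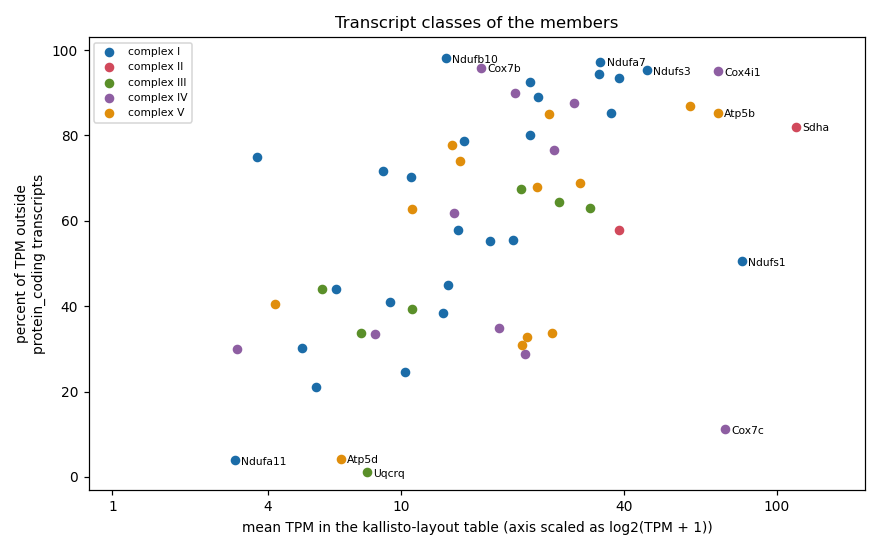
Percent of each member's TPM outside protein_coding transcripts against its mean TPM in the kallisto-layout table (axis scaled as log2(TPM + 1)), for 58 members coloured by complex. Members near 70 TPM lie both at 95.0% (Cox4i1) and at 11.2% (Cox7c).

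The quantifications placed most members at different levels. Of 73 members with a mean of 1 TPM, 67 were higher in the kallisto-layout table, against 81.0% of genes. On log2(TPM + 1), the median difference of that table minus the gene table was 0.66 for members and 0.38 for all such genes. The largest differences were those of Cox7a1 (2.68), Cox8b (2.54), Cox8a (2.39), Cox7a2 (2.34) and Cox7b (2.03), all of them short subunit genes of complex IV. Assignment could also be affected by copies elsewhere: 28 members shared over 10% of their 31-base words with another gene, the highest of the detected being Atp5l with 69.7%. Exons of a gene on the opposite strand overlapped 26 members, and whether counting used strand is not given in the sources used here. Neither count was computed for all protein-coding genes, so whether the members differ from them in this is not known.

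Across members, mean TPM went with the length of exonic sequence (Spearman's rho 0.64 over 85 genes) and with the number of introns (0.56), less with gene span (0.29). Over the 77 members that are not restricted forms, the values were 0.553, 0.535 and 0.214. In the kallisto-layout table they were 0.556, 0.569 and 0.278 over 85 genes. These are descriptions across genes that share libraries and a length-based estimate, and genes are not independent replicates.

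Promoters of the members were compared with known motifs of respiratory gene regulators. NRF1 and GABP, an ETS factor, are known for their role in nuclear respiratory genes, and YY1 is a factor tied to mitochondrial genes. Of 84 member symbols, 68 matched a promoter in the RefSeq table for GRCm38.p6, 2 of them through an older symbol, which gave 73 promoters of 300 bases, from 250 before to 50 after the start. The 8-letter core GCGCATGC of NRF1 was on either strand of 10 promoters (13.7%), against 2.71% of all 32851 promoters and 5.58% of those of protein-coding genes at 1 TPM or more. The YY1 core AAGATGGC was in 10 (13.7%), against 2.75% and 4.96%. The ETS core CCGGAAGT was in 5 (6.85%), against 3.89% and 9.12%, and the GC box GGGGCGGGG in 12 (16.4%), against 11.4% and 21.04%. NRF1, ETS or YY1 cores were in 24 (32.9%), against 8.83% and 18.3%. Matches of different cores overlapped in 0 of these promoters, and a promoter with the same core on both strands was counted once. A match is a run of letters, not a binding site.

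For each of those factors, the promoter of the highest member with its core is shown, to place the motif beside a measured gene. They are RefSeq sequences of GRCm38.p6, 5′ to 3′ on the gene's strand, with the core in capitals. Sdhb lies at chr4:140961021-140961320 on the plus strand, with the NRF1 core starting 54 bases before the start. Uqcrh lies at chr4:116075021-116075320 on the minus strand, with the ETS core 11 bases before it. Atp5j lies at chr16:84834927-84835226 on the minus strand, with the YY1 core 88 bases before it. The other Atp5j promoter in that source, at chr16:84835576-84835875, holds none of the 3 factors' cores, and it is the one at the GENCODE gene start.
Sdhb: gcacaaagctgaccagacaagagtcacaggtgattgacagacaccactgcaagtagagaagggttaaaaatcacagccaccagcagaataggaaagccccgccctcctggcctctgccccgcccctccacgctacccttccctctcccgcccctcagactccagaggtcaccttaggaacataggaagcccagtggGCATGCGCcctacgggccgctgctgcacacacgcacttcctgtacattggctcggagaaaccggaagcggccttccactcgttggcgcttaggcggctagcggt
Uqcrh: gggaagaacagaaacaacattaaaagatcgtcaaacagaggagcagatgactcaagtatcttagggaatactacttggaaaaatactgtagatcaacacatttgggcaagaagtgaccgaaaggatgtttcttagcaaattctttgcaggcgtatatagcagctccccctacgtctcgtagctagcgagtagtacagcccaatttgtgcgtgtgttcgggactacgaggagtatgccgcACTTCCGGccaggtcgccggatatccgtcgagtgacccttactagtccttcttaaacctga
Atp5j: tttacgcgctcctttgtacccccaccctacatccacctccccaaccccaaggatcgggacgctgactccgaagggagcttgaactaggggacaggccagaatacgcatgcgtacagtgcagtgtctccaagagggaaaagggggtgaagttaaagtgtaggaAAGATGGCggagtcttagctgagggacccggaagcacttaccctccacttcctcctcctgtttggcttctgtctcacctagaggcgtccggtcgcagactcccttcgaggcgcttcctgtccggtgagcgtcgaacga
The ETS core of Uqcrh and the NRF1 core of Sdhb are on the opposite strand and so read in reverse complement. These members averaged 27.6 ± 2.1 TPM (Sdhb), 20.8 ± 3.6 TPM (Uqcrh) and 31.4 ± 3.1 TPM (Atp5j; SD, n = 3). The regulators themselves had 23.5, 14.7 and 21.4 TPM (Nrf1), 14.1, 7.71 and 12.3 TPM (Gabpa) and 13.7, 11.5 and 14.1 TPM (Yy1).

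Many members start head to head with another gene. Using GENCODE M21 gene starts, 31 of 85 members (36.5%) had a protein-coding gene on the opposite strand whose start lay within 1000 bases, against 10.8% of all protein-coding genes. Over genes averaging 1 TPM or more it was 30 of 73 members (41.1%), against 18.0% of genes. By complex, 17 of 37 complex I genes, 3 of 4 complex II genes, 4 of 8 complex III genes, 1 of 18 complex IV genes and 6 of 18 complex V genes had such a neighbour. This comparison was added with the members' levels known.

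Levels within these pairs were often unlike, and the member was the lower of the pair in 10 of 31. Sdha averaged 73.7 TPM and its neighbour Ccdc127, with starts 29 bases apart, 7.20, 2.34 and 7.45 TPM in the 3 libraries. Ndufs1 averaged 40.1 TPM, against 14.8 ± 1.6 TPM for Eef1b2, a translation factor gene whose start overlaps it by 8 bases. In the other direction, Ndufa2 averaged 2.80 TPM, against 108 ± 10 TPM for Ik, and Ndufa4 2.83 TPM, against 42.3 ± 4.1 TPM for Phf14 (SD, n = 3). Sdhd and Timm8b, an import chaperone of mitochondria, were nearly level with 4.58 and 4.63 TPM. The partner of Atp5j is Gabpa, the DNA-binding subunit of GABP, and their gene starts overlap by 700 bases. Atp5j had 33.3, 27.8 and 33.1 TPM, against 14.1, 7.71 and 12.3 TPM for Gabpa, and both were lowest in replicate 2, as were most genes on this scale.

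**Figure D5:**
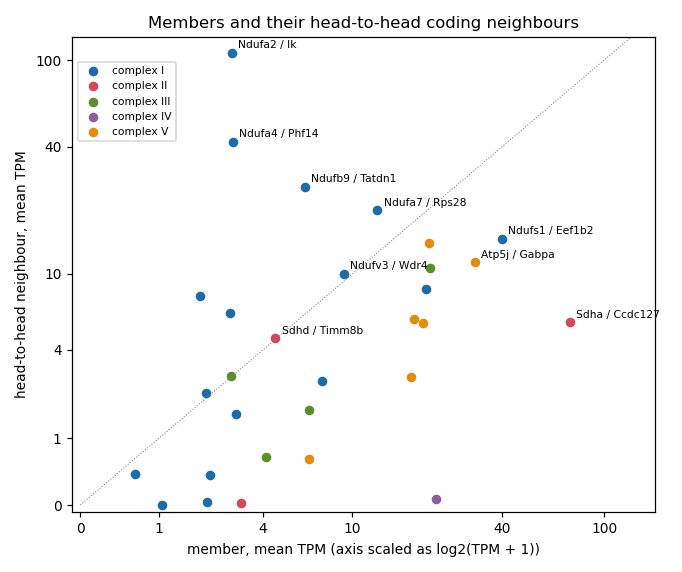
Mean TPM of 30 of the 31 members (horizontal) and of their head-to-head protein-coding neighbours (vertical), both scaled as log2(TPM + 1), coloured by complex; the dotted line marks equal levels. Sdha with Ccdc127 and Ndufa2 with Ik lie far from the line on opposite sides, at 73.7 and 5.66 TPM and at 2.80 and 108 TPM.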

How the data were processed

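Values refer, per the file headers and the deposited notes, to mm10 and annotation M21. The authors' gene table holds expected counts and TPM in the column layout of RSEM, and the authors' other transcript table holds estimated counts and TPM in that of kallisto. Programs, versions and strand setting: not given in the sources used here. Expected counts were rounded, and log2 CPM was computed with edgeR 4.0.16 (TMM factors, prior count 2), with DESeq2 1.42.0 size factors as an alternative; the step was tested on simulated data. Entries that name no gene (2.46, 0.484 and 0.327% of counts in replicates 1, 2 and 3) stayed out. Levels are TPM, on log2(TPM + 1). Total counts were 13953780, 24222661 and 16571228. Floors cover counting error only. With 1 group no test was possible, and all comparisons with other genes are descriptions. The members and lists were chosen with earlier results of these data known. Genes were named by a rule: the highest and lowest by complex, paired forms, those under 1 TPM, and the extremes of spread, class share and ratio of the quantifications; others named in the text were picked after their values were seen. The deposited posterior SD of the counts (an "other" value) was read but bears on no result. The planned comparison of protein sequences was not run. Subgroups within a complex follow textbook roles. The values of 1 member are not reported singly here, and it is left out of the plots that name genes.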

Additional observations from a re-analysis of the deposited data

How the results depend on the processing

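The members' median level over protein-coding genes was 2.17 on the log2 scale. It was 3.09 with a pseudocount of 0.1, 1.13 in CPM and 1.85 without the members that share over 10% of words (chosen after seeing the data), and it was reversed, at -0.47, among genes with a mean of 1 TPM. Leaving out a replicate gave 2.16 to 2.27. Median levels by complex moved with the quantification, to 3.54, 4.64, 3.36, 3.57 and 4.23 for complexes I to V in the kallisto-layout table, and in CPM to 1.92, 3.91, 1.98, 1.07 and 2.74 (chosen after seeing the data). A pseudocount of 0.1 gave 2.56, 3.51 and 1.78 for complexes I, II and IV, and a mean of 1 TPM or more gave 3.70 and 4.02 for complexes IV and V. At 5 TPM, 43 members passed in every library, and 77 passed 1 TPM in the kallisto-layout table. The counts of members highest or lowest in a replicate moved on log2(TPM + 1), as did those of all genes. In replicates 1, 2 and 3, 25, 6 and 17 of 48 were highest (52.1, 12.5 and 35.4%, against 51.4, 9.43 and 39.1% of genes). The lowest were 9, 28 and 11 (18.8, 58.3 and 22.9%, against 17.4, 70.7 and 11.8%). With a mean of 10 counts, of 72 members 21 were highest in replicate 1 (29.2%, against 31.6% of genes), 14 highest in replicate 3 (19.4%, against 29.5%) and 20 lowest in replicate 2 (27.8%, against 33.4%). In the kallisto-layout table, of 67 members 17 were highest in replicate 1 (25.4%, against 31.9% of genes) and 29 lowest there (43.3%, against 43.1%). The median share outside protein_coding transcripts was 64.0% in the RSEM-layout transcript table, against a median of 52.1% for genes there. In the kallisto-layout table with a replicate left out, the members' median was 61.6 to 63.3%. The cause of these moves was not tested. The median SD kept within 0.129 to 0.208 over all settings, a factor of under 1.5 from 0.159; it was above the genes' median in the kallisto-layout table and without replicate 1. Of 50 named genes, 37 moved by over 1 SD in the kallisto-layout table, 35 of them higher. No paired analysis was possible because there is 1 group. Members with under 50 counts are limited by depth.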
